A study of Mus musculus with 4 samples.

Results

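The 10 genes described here are the chloride channel accessory (CLCA) genes Clca1, Clca2, Clca3a1 and Clca3a2, the channel genes Cftr, Ano1, Ano6 and Ano9, and the anion transporter genes Slc26a9 and Slc26a4. They were found by exact gene symbol among the 24391 genes listed for each of 4 mouse lung tumour samples. Clca3a1 was chosen because it was lower in the samples labelled as lacking Mll4, and the other members were chosen as its relatives or as epithelial anion channels. The differences between the groups in these 10 genes are therefore given as a description. Counts of members called are set beside the shares of all genes, and nothing is read from them. Both groups carried K-Ras LSL-G12D, an oncogenic allele that stays silent until Cre recombines it, and were labelled K-Ras (2 samples) and K-Ras Mll4-/- (2 samples, with Mll4 fl/fl alleles in the design). Mll4, listed as Kmt2d, encodes a histone methyltransferase that acts mainly at enhancers. Leukocytes bearing CD45 had been depleted from the digested tumours before total RNA was extracted. The Cre, its route, and the age, sex and number of mice are not given in the sources used here. Nothing in the labels says that replicates came from separate mice, so p-values measure the spread between these samples, which may be technical.

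Epithelia secrete fluid by moving chloride and bicarbonate across the apical membrane, and water follows. In the airway, CFTR opens on cyclic AMP signals and ANO1 opens on calcium, while SLC26 proteins carry or exchange anions beside them. CLCA proteins are not channels themselves. They are secreted or surface metalloproteases, and CLCA1, released with mucus by goblet cells, is known to hold ANO1 at the cell surface.

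Between 26683033 and 36677987 reads were assigned to genes in a sample. Levels below are counts scaled to 1000000 assigned reads (CPM), adjusted by edgeR's TMM factors. The floor for detection was set at 3 reads, or 0.0830 to 0.114 CPM on that scale, and covers counting error only. Kmt2d was at 367 and 317 CPM in the K-Ras Mll4-/- samples and at 395 and 526 CPM in the K-Ras samples. Its reads do not resolve single exons, so the loss of Mll4 is taken from the labels. Alveolar type 2 markers (8 genes, led by the surfactant gene Sftpc) were the most abundant of 13 marker lists in each sample, at a summed 17510 to 29142 CPM. Markers of ciliated and club cells stood apart in K-Ras replicate 2.

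Clca3a1 was the most abundant CLCA transcript in each sample and was lower in both K-Ras Mll4-/- samples. It encodes a calcium-activated chloride conductance regulator, known in the mouse also as a surface antigen of lymphatic endothelium. It was at 32.6 and 32.9 CPM in the K-Ras samples and at 10.4 and 8.50 CPM in the K-Ras Mll4-/- samples. The group means were 32.8 ± 0.187 and 9.47 ± 1.37 CPM (SD, n = 2 each), a level 3.46-fold higher in K-Ras tumours. The K-Ras samples were nearly equal, with a ratio of 1.01 between them, and both lay well above both K-Ras Mll4-/- samples. The log2 fold change, K-Ras Mll4-/- minus K-Ras, was -1.79 (SE 0.18). In these bulk samples, fewer cells of a type that makes the transcript and less transcript per cell cannot be told apart.

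The CLCA genes lie side by side on mouse chromosome 3, and the sequence before the start of Clca3a1 is shown because the results turn on this gene. In the order of the RefSeq annotation (GRCm38.p6) the cluster runs Clca3a1, Clca3a2, Clca3b, Clca4c-ps, Clca4b, Clca4a, Clca1 and Clca2. The longest protein-coding transcripts of Clca3a1 and Clca3a2 were 96.4% identical over 3427 aligned bases, and those of Clca3a1 and Clca3b were 82.9% identical. Clca1 and Clca2 were 66.2% to 66.3% and 66.0% identical to Clca3a1. The 250 bases before the start of Clca3a1 (chr3:144760978-144761227, minus strand) are given 5′ to 3′ from RefSeq, GRCm38.p6. Capitals mark a CCAAT box.
Clca3a1: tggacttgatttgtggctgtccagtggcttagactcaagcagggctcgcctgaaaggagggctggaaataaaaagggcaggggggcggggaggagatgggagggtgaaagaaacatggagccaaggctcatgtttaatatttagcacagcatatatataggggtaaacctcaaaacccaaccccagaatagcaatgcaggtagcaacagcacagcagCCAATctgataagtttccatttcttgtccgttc

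The CCAAT box begins 33 bases before the start. CCAAT was found on either strand in 33.8% of the 32851 windows of 250 bases in the RefSeq table, so many genes hold it. TATAAA, found on either strand in 12.4% of the windows, was not in the Clca3a1 window, whereas those of Slc26a9 and Slc26a4 held it. Slc26a9 also held CCAAT. The windows of Clca2, Cftr, Ano1 and Ano6 held neither. A match describes letters and is not a bound site. Clca1 and Ano9 had no window in the table.

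Clca3a2, the neighbour with the near-identical transcript, was at trace levels and lay the other way. It was at 0.327 and 0.194 CPM in the K-Ras samples, from 10 and 7 reads, and at 1.10 and 0.465 CPM in the K-Ras Mll4-/- samples, from 29 and 15 reads. The groups did not overlap, and the log2 fold change was 1.58 (SE 0.67). Without K-Ras Mll4-/- replicate 1 it was 0.84. For each read on Clca3a2 there were 99.8 and 170 reads on Clca3a1 in the K-Ras samples, against 9.45 and 18.3 in the K-Ras Mll4-/- samples. Of the windows of 50 bases in the Clca3a1 transcript, 23.6% also occurred in Clca3a2 transcripts. Reads placed in more than 1 position were tallied apart from genes, so both genes can be undercounted, and reads with errors could be assigned to the wrong copy.

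Clca1, the goblet cell mucus protein, did not separate the groups. Its level was 6.48 and 1.27 CPM in the K-Ras samples and 2.29 and 3.75 CPM in the K-Ras Mll4-/- samples, so that the K-Ras pair lay on both sides of the other pair. The K-Ras samples differed 5.09-fold from each other, more than the 1.28-fold between the group means. Clca2, a gene of basal and squamous epithelium, was at 0.491 and 0.775 CPM in the K-Ras samples and at 0.571 and 0.465 CPM in the K-Ras Mll4-/- samples, and the groups overlapped. The log2 fold changes were -0.35 (SE 0.83) for Clca1 and -0.30 (SE 0.49) for Clca2.

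The other CLCA genes were close to absent from the counts. Clca3b had 6 and 15 reads in the K-Ras samples and 0 and 1 in the K-Ras Mll4-/- samples. Clca4a had 1 read in all, and Clca4b and the pseudogene Clca4c-ps had 0 in each of the 4 samples, which allows at most 0.0830 to 0.114 CPM per sample. Clca3a1 made up 81.3% (79.0% to 83.5%) and 92.5% (91.0% to 93.9%) of the reads on all 8 CLCA loci in the K-Ras samples. In the K-Ras Mll4-/- samples its share was 72.3% (67.5% to 76.7%) and 64.3% (59.6% to 68.9%). These are exact Clopper-Pearson 95% intervals that cover counting error only. The family without Clca3a1 summed to 7.49 and 2.66 CPM in the K-Ras samples, and both K-Ras Mll4-/- sums lay between these, the higher at 4.72 CPM.

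**Figure D1:**
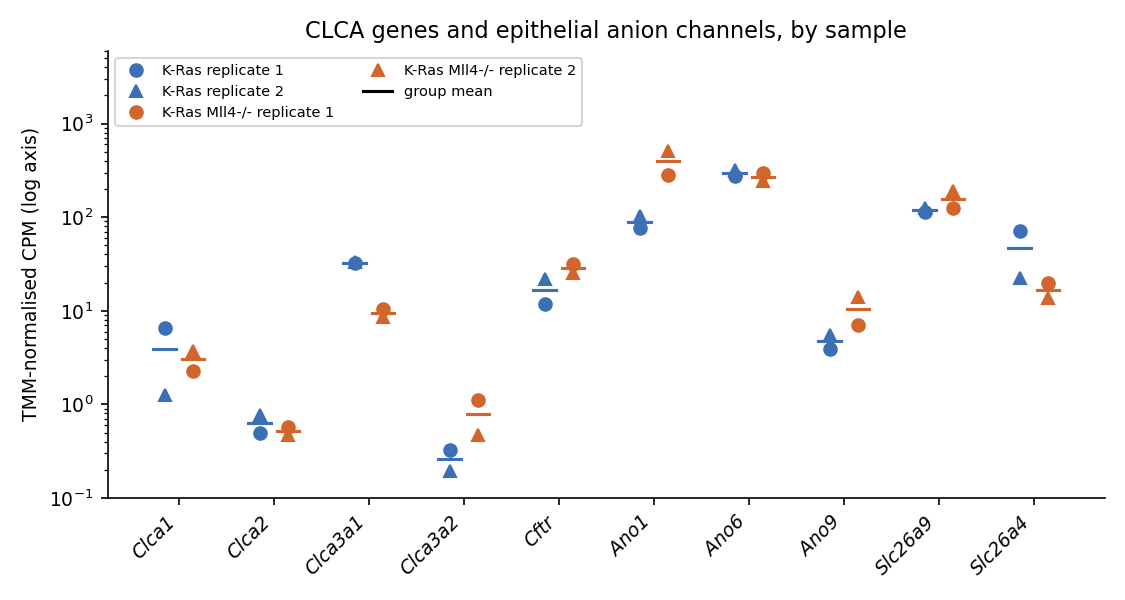
TMM-normalised CPM (log axis) of the 10 genes in each of the 4 samples, with circles for replicate 1, triangles for replicate 2 and short lines for the group means. Clca3a1 and Slc26a4 lie lower in both K-Ras Mll4-/- samples, Ano1, Ano9, Cftr and Clca3a2 lie higher, and the groups overlap for Clca1, Clca2, Ano6 and Slc26a9.

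Ano1, the calcium-activated chloride channel of secretory epithelia, was the member with the largest positive difference. It was at 76.6 and 102 CPM in the K-Ras samples and at 282 and 507 CPM in the K-Ras Mll4-/- samples. The means were 89.3 ± 17.9 and 395 ± 159 CPM (SD, n = 2 each), 4.42-fold apart, with a log2 fold change of 2.14 (SE 0.35). The groups were widely apart, and K-Ras Mll4-/- replicate 2 was the highest. Without that sample the log2 fold change was 1.66.

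The other anoctamins among the members did not share the size of that difference. Ano6, a calcium-activated phospholipid scramblase present in many cell types, was at 277 and 318 CPM in the K-Ras samples and at 293 and 242 CPM in the K-Ras Mll4-/- samples. The groups overlapped, and its log2 fold change was -0.15 (SE 0.18). Ano9 was at 3.89 and 5.53 CPM in the K-Ras samples and at 7.01 and 14.0 CPM in the K-Ras Mll4-/- samples. Both K-Ras Mll4-/- values were the higher, but they were 2.00-fold apart, and the log2 fold change of 1.16 (SE 0.43) was 0.56 without K-Ras Mll4-/- replicate 2. Counted against Ano6 in the same sample, Ano1 had 0.276 and 0.321 reads per Ano6 read in the K-Ras samples and 0.964 and 2.09 in the K-Ras Mll4-/- samples.

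Cftr, the cyclic AMP-regulated channel that is defective in cystic fibrosis, was at 11.7 and 21.8 CPM in the K-Ras samples. It was at 31.7 and 25.1 CPM in the K-Ras Mll4-/- samples, so that the groups did not overlap but K-Ras replicate 2 came close to the lower of them. On the log2 scale the difference was 0.76 (SE 0.35). It was 0.39 without K-Ras replicate 1 and 1.27 without K-Ras replicate 2. There were 6.56 and 4.69 Ano1 reads for each Cftr read in the K-Ras samples, against 8.91 and 20.2 in the K-Ras Mll4-/- samples.

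The pair of SLC26 members lay in opposite directions. Slc26a9, an epithelial chloride transporter of airway and stomach, was at 114 and 126 CPM in the K-Ras samples and at 125 and 191 CPM in the K-Ras Mll4-/- samples. Those values overlapped, and its log2 fold change of 0.39 (SE 0.24) was 0.050 without K-Ras Mll4-/- replicate 2. Slc26a4, or pendrin, which exchanges chloride for bicarbonate or iodide, was at 70.9 and 22.2 CPM in the K-Ras samples and at 19.8 and 13.6 CPM in the K-Ras Mll4-/- samples. One sample, K-Ras replicate 1, was far above the other 3. Its log2 fold change of -1.48 (SE 0.60) was -0.41 without that sample.

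**Figure D2:**
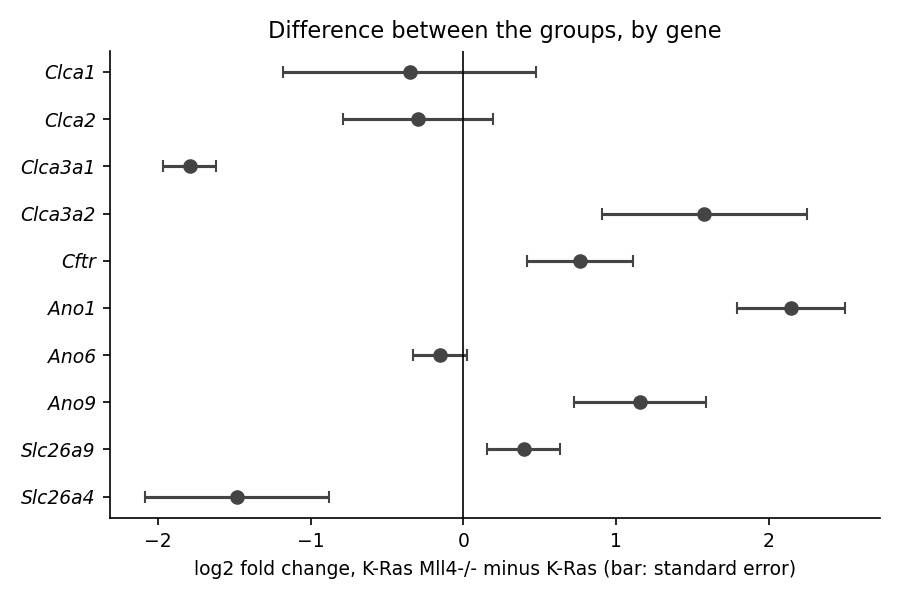
Log2 fold change of each of the 10 genes, K-Ras Mll4-/- minus K-Ras, from the edgeR fit over all genes, with bars for the standard error. Clca3a1 (-1.79) and Ano1 (2.14) lie far from 0 relative to their bars, whereas the bars of Clca1, Clca2 and Ano6 cross 0.

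Across the 10 members, all of which passed the count filter, 4 were higher in both K-Ras Mll4-/- samples than in both K-Ras samples and 2 were lower. Among the 16001 genes tested, 29.9% were higher in that sense and 28.5% were lower, or 58.3% in either direction. By the edgeR quasi-likelihood test with Benjamini-Hochberg adjustment over all genes, 0 of the 10 were called at an adjusted p under 0.05, against 0.0375% of all genes. At an unadjusted p under 0.05 there were 2 higher and 1 lower, against 11.4% and 10.4% of all genes (21.8% in either direction). DESeq2 called Ano1 higher and Clca3a1, the gene chosen for its fall, lower, against 5.02% and 4.98% of all genes (10.0% in either direction). With the replicate number added to the edgeR fit as a block, the same 2 genes were called, against 1.24% higher and 0.112% lower (1.36% in either direction). limma-voom called 0 members, against 0.00%. Because Clca3a1 was chosen from this contrast, nothing is read from these counts. The median log2 fold change was 0.12 over the members and -0.01 over all genes tested.

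The order of the levels per kilobase of the longest GENCODE M21 transcript differed between the groups at the top. In the K-Ras samples, Ano6 was first at 60.4 CPM per kilobase, followed by Slc26a9 at 25.3, Ano1 at 19.5, Slc26a4 at 15.1 and Clca3a1 at 8.63. In the K-Ras Mll4-/- samples, Ano1 was first at 86.0 CPM per kilobase, followed by Ano6 at 54.3, Slc26a9 at 33.3, Slc26a4 at 5.43 and Cftr at 4.43. Clca3a1 had rank 5 in the K-Ras order and rank 7 in the K-Ras Mll4-/- order, at 2.49 CPM per kilobase. Neighbours whose sample values overlapped were Ano1 with Slc26a4, Slc26a4 with Clca3a1, and Ano9 with Clca1 in the K-Ras samples. In the K-Ras Mll4-/- samples they were Slc26a4 with Cftr, Cftr with Ano9, Ano9 with Clca3a1, and Clca3a2 with Clca2. The lowest members were Clca2 and Clca3a2 in both groups, at 0.0713 to 0.215 CPM per kilobase. With the median length of each gene's transcripts, Slc26a9 led the K-Ras order at 93.4 CPM per kilobase, ahead of Ano1 at 92.5 and Ano6 at 92.4.

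The genes whose pattern over the 4 samples was most like that of Clca3a1 were Ptpru, Cdkl1, P4htm, Amigo2 and Adamts15. Likeness was the root mean square difference between log2 CPM values centred on each gene's mean, and it lay between 0.103 and 0.123 for these 5 among 14475 genes compared. Ptpru, a receptor tyrosine phosphatase, was at 97.4 and 108 CPM in the K-Ras samples and at 37.7 and 26.4 CPM in the K-Ras Mll4-/- samples. Amigo2, an adhesion protein gene, was at 36.5 and 32.3 CPM in the K-Ras samples and at 12.4 and 8.69 CPM in the K-Ras Mll4-/- samples. Within 0.25 there were 45 genes, so a pattern over 4 samples is shared by many.

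Other genes of anion transport were taken from a list of 48 that held the remaining chloride channel, anoctamin, bestrophin, LRRC8, CLIC, TTYH and SLC26 genes and the remaining CLCA loci. Of these, 37 passed the count filter and 0 were called in either direction by the edgeR quasi-likelihood test. At an unadjusted p under 0.05 there were 5 higher and 5 lower in the K-Ras Mll4-/- samples, or 27.0% of those tested against 21.8% of all genes. DESeq2 called 3 higher and 2 lower, or 13.5% against 10.0%, and limma-voom called 0. The median log2 fold change was -0.02, beside -0.01 over all genes. These shares lay near the background of all genes.

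Slc26a2, a sulfate transporter gene, had the smallest p-value on that list. It was at 49.5 and 61.5 CPM in the K-Ras samples and at 178 and 170 CPM in the K-Ras Mll4-/- samples, a log2 difference of 1.65 (SE 0.16, adjusted p = 0.116 by edgeR). The groups were far apart, and with the replicate block edgeR gave an adjusted p of 0.0289. Clcn2, a plasma membrane chloride channel gene, followed among the higher genes, at 5.23 and 7.47 CPM in the K-Ras samples and 18.5 and 20.7 CPM in the K-Ras Mll4-/- samples (log2 fold change 1.62, SE 0.25, edgeR adjusted p = 0.138). Clcn5, an endosomal chloride-proton exchanger gene, had a log2 fold change of 0.98 (edgeR adjusted p = 0.164). Ano3 rested on 1 to 29 reads per sample (log2 fold change 2.97, edgeR adjusted p = 0.173).

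Among the lower genes, Clcn6, a late endosomal member of the CLC family, was at 24.8 and 24.5 CPM in the K-Ras samples and at 14.4 and 12.6 CPM in the K-Ras Mll4-/- samples (log2 fold change -0.87, SE 0.16, edgeR adjusted p = 0.147). Ano2 and Ttyh3 had log2 fold changes of -1.51 and -0.47 (edgeR adjusted p = 0.189 and 0.187). The DESeq2 calls included Slc26a2, Clcn2, Clcn5 and Clcn6.

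A second list held 32 transporters, potassium channels, aquaporins, receptors and kinases that work with anion channels in epithelial fluid transport. Of the 31 tested, 0 were called by the edgeR quasi-likelihood test. At an unadjusted p under 0.05 there were 7 higher and 0 lower, or 22.6% against 21.8% of all genes. DESeq2 called 6 higher and 0 lower, or 19.4% against 10.0%, and limma-voom called 0. The median log2 fold change was 0.19, beside -0.01 over all genes.

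Kcne3, a subunit of the basolateral potassium channel that sustains chloride secretion, was at 0.981 and 1.30 CPM in the K-Ras samples and at 52.1 and 19.0 CPM in the K-Ras Mll4-/- samples (log2 fold change 4.95, SE 0.63, edgeR adjusted p = 0.128). Car12, a membrane carbonic anhydrase gene, was at 1.11 and 0.360 CPM in the K-Ras samples and at 12.4 and 15.9 CPM in the K-Ras Mll4-/- samples (log2 fold change 4.28, SE 0.60, edgeR adjusted p = 0.135). Both genes were low in both K-Ras samples and present in both others. Slc4a4, the sodium bicarbonate cotransporter gene, was at 42.6 and 81.6 CPM in the K-Ras samples and at 170 and 206 CPM in the K-Ras Mll4-/- samples (log2 fold change 1.60, edgeR adjusted p = 0.158). Stk39, whose kinase activates the chloride-loading cotransporter NKCC1, was at 28.2 and 53.1 CPM in the K-Ras samples and at 108 and 156 CPM in the K-Ras Mll4-/- samples (log2 fold change 1.70, edgeR adjusted p = 0.159). It was called with the replicate block, at an edgeR adjusted p of 0.0259. DESeq2 called these 4 genes together with Slc12a2, which encodes NKCC1 itself, and the aquaporin gene Aqp5. On the lower side, the smallest p-values included those of P2ry2, Wnk4 and Adora2b, with log2 fold changes of -0.59, -0.75 and -0.50 and edgeR adjusted p values from 0.256 to 0.271.

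**Figure D3:**
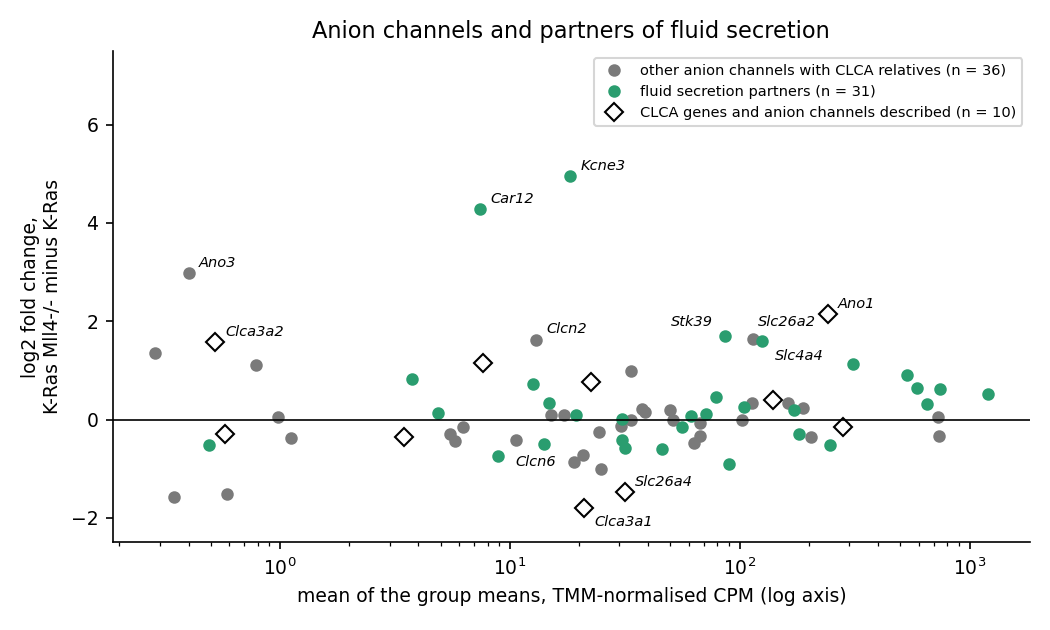
Log2 fold change, K-Ras Mll4-/- minus K-Ras, against the mean of the group means in TMM-normalised CPM (log axis), with grey points for other anion channel genes, green points for fluid secretion partners and open diamonds for the 10 genes described. Genes with 0 reads throughout a group are not drawn, and Kcne3 (4.95) and Car12 (4.28) lie highest.

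Markers of other cell types moved with several of these genes. Endothelial markers summed to 3916 and 4976 CPM at the ends of the K-Ras Mll4-/- group and to 7521 and 8061 CPM at those of the K-Ras group, and 8 of 10 were lower in both K-Ras Mll4-/- samples. Over all genes tested, 28.5% were lower and 29.9% higher in that sense. Lymphatic endothelial markers, led by Lyve1, summed to 230 to 280.5 CPM against 395 to 423 CPM. Of these, 3 of 7 (Prox1, Lyve1 and Flt4) were lower in both K-Ras Mll4-/- samples. The groups overlapped for Mmrn1, Reln and Pdpn, and Ccl21a was at 0 reads in all 4 samples. Prox1 was at 6.80 and 4.04 CPM in the K-Ras samples and at 2.74 and 3.54 CPM in the K-Ras Mll4-/- samples. Clca3a1 is itself an antigen of that cell type. Per 1000 CPM of the endothelial sum, Clca3a1 was at 4.05 and 4.37 CPM in the K-Ras samples and at 2.10 and 2.17 CPM in the K-Ras Mll4-/- samples. Per 1000 CPM of the lymphatic sum it was at 82.7 and 77.8 CPM in the K-Ras samples and at 37.2 and 36.9 CPM in the others. On these scales Clca3a1 was 1.97-fold and 2.16-fold higher in K-Ras tumours, against 3.46-fold unscaled. A smaller ratio was not particular to these 2 lists. Scaled to the ciliated, mast cell, fibroblast and club sums, the mean of Clca3a1 was 1.12-fold, 1.71-fold, 1.90-fold and 1.92-fold higher. On the ciliated and club scales K-Ras replicate 2 lay below both K-Ras Mll4-/- samples. Per 1000 CPM of the ciliated sum, Clca3a1 was at 248 and 42.3 CPM in the K-Ras samples, against 150 and 108 CPM. For the club sum it was at 45.2 and 8.89 CPM, against 13.6 and 14.5 CPM. Scaled to each of the remaining lists the mean was at least 2.75-fold higher, although samples overlapped on the goblet scale. The part of any of these cell types in the Clca3a1 difference was not tested.

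Airway markers were highest in K-Ras replicate 2. Ciliated markers summed to 132 and 778 CPM in K-Ras replicates 1 and 2 and to 69.4 and 78.6 CPM in the K-Ras Mll4-/- samples. Of these markers, 8 of 8 were lower in both of the latter, against 28.5% of all genes. Club cell markers summed to 723 and 3701 CPM in the K-Ras samples and to 765 and 585 CPM in the others. Clca3a1 was at 32.6 and 32.9 CPM in K-Ras replicates 1 and 2. Without K-Ras replicate 2 its log2 fold change was -1.80, beside -1.79 with all samples. The part of airway cells in the Clca3a1 difference was not tested. Clca1 and Slc26a4 were lower in K-Ras replicate 2 than in replicate 1. Goblet markers, with which Clca1 is usually found, summed to 102 and 363 CPM in the K-Ras samples and to 100.1 and 189 CPM in the K-Ras Mll4-/- samples.

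Fibroblast markers summed to 2487 and 1137 CPM in the K-Ras samples and to 848 and 861 CPM in the K-Ras Mll4-/- samples. Of these markers, 7 of 8 were lower in both of the latter, against 28.5% of all genes. Like Slc26a4 and Clca1, they were highest in K-Ras replicate 1. Gastric epithelial markers, led by Gkn2, summed to 6.90 and 8.88 CPM in the K-Ras samples and to 362 and 438 CPM in the K-Ras Mll4-/- samples. Of these markers, 6 of 9 were higher in both of the latter, against 29.9% of all genes tested. The 6 include Tff1 and Pgc, which did not pass the count filter. Tff1 had 0 and 0 reads in the K-Ras samples and 6 and 2 in the K-Ras Mll4-/- samples. Pgc had 5 and 10 reads in the K-Ras samples and 21 and 9 in the others. Ano1 was also higher in both K-Ras Mll4-/- samples. The sums of alveolar type 2 markers overlapped between the groups, and per 1000 CPM of that sum Ano1 was at 4.37 and 3.50 CPM in the K-Ras samples and at 11.8 and 20.2 CPM in the K-Ras Mll4-/- samples. Ionocytes, rare airway cells rich in Cftr, were not seen by their defining factor, since Foxi1 had 1 read in K-Ras replicate 1 and 0 elsewhere. The part of these cell types in the differences of Ano1, Cftr, Slc26a4 and Clca1 was not tested.

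Of the remaining lists, only the mast cell and the smooth muscle and pericyte sums did not overlap between the groups, and the latter all but touched. Smooth muscle and pericyte markers summed to 206.2 and 275 CPM at the ends of the K-Ras group. They summed to 175 and 205.7 CPM at those of the K-Ras Mll4-/- group, with 3 of 7 lower and 1 higher. Alveolar type 1 sums (1784 to 2437 CPM), leukocyte sums (3123 to 4811 CPM) and ionocyte list sums (62.6 to 325 CPM) overlapped between the groups. Lyz2 (2822 to 4303 CPM) carried the leukocyte sums, and Atp6v0d2 (58.0 to 318 CPM) carried the ionocyte list sums. Each of these sums therefore mostly follows a single gene. The mast cell list, carried by Kit, summed to 229 and 264 CPM in the K-Ras samples and to 128 and 114 CPM in the others, with 1 of 6 lower and 1 higher. Over all genes tested, 28.5% were lower and 29.9% higher in both K-Ras Mll4-/- samples.

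**Figure D4:**
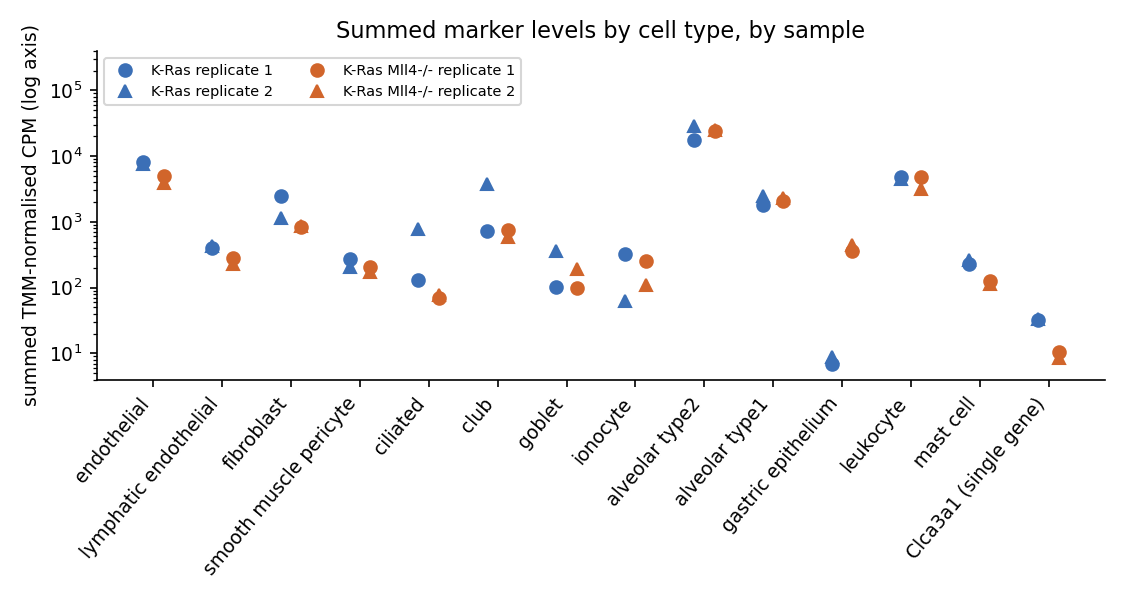
Summed TMM-normalised CPM (log axis) of 13 cell type marker lists in each of the 4 samples, with Clca3a1 alone at the right, circles for replicate 1 and triangles for replicate 2. Endothelial, lymphatic endothelial, fibroblast, ciliated, mast cell, and smooth muscle and pericyte sums are lower in both K-Ras Mll4-/- samples, as is Clca3a1. The ciliated and club sums stand out in K-Ras replicate 2.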

How the data were processed

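RNA from 4 CD45-depleted mouse lung tumour samples, 2 per group, was sequenced on an Illumina HiSeq instrument, per the labels' protocols. For each gene symbol the authors deposited an unnormalised read count in the HTSeq layout. Rows that name no gene (60.1% to 65.6% of the entries in a file, with alignments that were not unique at 31.5% to 36.7%) stayed out of library sizes and tests. STAR, HTSeq, CASAVA 1.4 and build mm9 are named in the submitters' processing notes, while the annotation and the strand setting are not given in the sources used here. Without strand, genes on the other strand cannot be told apart from the members that they overlap. Antisense genes overlap 4.36% of the Clca3a1 exonic bases, 6.06% of those of Clca3a2 and 1.66% of those of Cftr. In Ano6, an antisense gene overlaps 1.74% of the exonic bases and a processed transcript on the other strand overlaps 0.994%. The files list 8 separate CLCA loci.

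Groups and replicate numbers come from the sample titles. The files were fitted in edgeR 4.0.16 (R 4.3.3) with filterByExpr, TMM scaling and the robust quasi-likelihood test over 16001 genes, with Benjamini-Hochberg adjustment and a threshold of 0.05. The standard error is the log2 fold change divided by the square root of the F statistic. The edgeR test, DESeq2, limma-voom, the replicate block, and the GC and length offsets without the block were tested on simulated data. The other scalings and filters, the block with offsets and the fits without a sample were not. The simulated data gave all genes the same dispersion and held no replicate, GC or length effect. They therefore cannot show how the block or the offsets perform on these samples. With 2 samples per group, the smallest two-sided p of an exact permutation test is 0.333, so none was run. DESeq2 1.42.0, limma-voom (limma 3.58.1), other scalings, other filters, the replicate block and leaving out each sample were alternatives. GC and length offsets (mgcv 1.9.3, 15863 genes with values) and the longest protein-coding transcript as length were chosen after seeing the data. Members and lists were chosen with earlier results of these data known. Named genes were all members, Kmt2d, any called gene and the 4 smallest p-values per direction in each of 2 pathway lists, and the 5 genes most like Clca3a1 with a mean of at least 1 CPM. Some genes and sequences under these rules are not reported here. Slc12a2, Aqp5 and the remaining CLCA loci were named after their values were seen. Transcripts came from GENCODE M21 and promoter windows from RefSeq, both on GRCm38, and no position was converted between builds.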

Additional observations from a re-analysis of the deposited data

How the results depend on the processing

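Against 6 genes called by edgeR over all genes, 44 were called without a count filter, 217 with the replicate block, 113 with the replicate block and GC and length offsets, 1601 by DESeq2 and 0 by limma-voom, and leaving out 1 sample gave 0 to 528, the last without K-Ras replicate 1. Against 0 other anion channel genes, 1 (Slc26a2) was called without a count filter, with the replicate block, and with the block and offsets, 5 by DESeq2, and 0 to 1 with a sample left out (Slc26a2, without K-Ras replicate 1). Against 0 fluid secretion partners, 1 (Stk39) was called with the replicate block, alone or with the offsets, 6 by DESeq2, and 0 to 2 with a sample left out (Car12 among them, without K-Ras replicate 1). The cause was not tested. Other scalings and the filter on mean CPM kept these counts at 6 to 7 over all genes and 0 in both lists. Fits without 1 sample assume that the lone sample varies like the other group.

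Of 128 member values under alternatives, 117 kept their sign and moved by less than the spread between replicates, and 8 of the 10 members kept their sign in all of them. With 1 sample left out, Clca1 ranged from -1.11 to 1.25 and Clca2 from -0.58 to 0.061. Clca1 reversed from -0.35 to 0.0027 with the replicate block, to 0.11 with limma-voom and to 1.25 without K-Ras replicate 1, and Clca2 reversed from -0.30 to 0.061 without K-Ras replicate 2. Clca3a1 ranged from -1.94 to -1.66 and Ano1 from 1.66 to 2.51. Same-numbered samples deviated together at a correlation of 0.21 across genes, but the labels do not say what a number shares, so they were not treated as pairs. Depth limits Clca2, Clca3a2 and Clca3b, which had at most 29 reads in any sample.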

Other observations

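The genes flanking the CLCA cluster were compared after the values were seen. The 4 nearest tested protein-coding genes on each side were Sh3glb1, Hs2st1, Lmo4 and Pkn2 beside Clca3a1, and Odf2l, Col24a1, Znhit6 and Ddah1 beside Clca2. Of these, 0 of 8 were called by the edgeR quasi-likelihood test, against 0.0375% of all genes. At an unadjusted p under 0.05 there were 2 of 8, against 21.8% of all genes. DESeq2 called 1 of 8, against 10.0%, and limma-voom called 0, against 0.00%. These counts lay near the background, so nothing about the locus is read from them. Sh3glb1, the direct neighbour of Clca3a1, was at 290 and 264 CPM in the K-Ras samples and at 296 and 279 CPM in the K-Ras Mll4-/- samples (log2 fold change 0.05, SE 0.15, edgeR adjusted p = 0.859). Hs2st1, a heparan sulfate sulfotransferase gene, was at 68.3 and 66.9 CPM in the K-Ras samples and at 97.6 and 143 CPM in the K-Ras Mll4-/- samples (log2 fold change 0.83, edgeR adjusted p = 0.175), and DESeq2 called it. Ddah1 lay lower, with a log2 fold change of -0.72 (edgeR adjusted p = 0.185). Over these 8 genes the log2 fold changes ran from -1.29 to 0.83.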
